A study of Mus musculus with 24 samples.

Results

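The genes described here are 10 members of the growth hormone (GH) and insulin-like growth factor 1 (IGF1) axis in mouse liver: Ghr, Stat5b, Socs2, Igf1, Igfals, Igfbp1, Igfbp2, Igfbp4, Bcl6 and Egfr. They were picked by gene name from the 15160 genes of the count table and not by a cutoff on their values, though earlier results of these data were known. All 10 passed the filter on low counts, and the lowest count of any of them in any of the 24 mice was 62. The study asked whether NRF2 in the liver, a transcription factor of the antioxidant response encoded by Nfe2l2, is needed for the response to dietary methionine restriction (MR). WT mice were littermates with both Nfe2l2 alleles floxed (NRF2fl/fl), and NRF2 KO mice (NRF2fl/(alb)) carried floxed Nfe2l2 and a Cre recombinase under the albumin promoter, which is active in hepatocytes. Cells of the liver in which this promoter was never active keep the gene. Males of both genotypes received either a control diet (Con), in which methionine made up 0.86%, or a restricted one (MR) with 0.17%, for 8 weeks, beginning when they were 8 weeks old. Liver was taken after a 4 h fast, at a labelled age of 5 months. In the study's long experiment, calorimetry and a return to home cages came between the 8 weeks and the taking of tissue. There were 6 mice in each group, and without the mice WT_CON_7604 and WT_MR_7612, which the study left out too, 5 mice remained in each WT group and 6 in each NRF2 KO group. Neither diet contained cysteine. Values of single WT mice are listed in the order WT_CON_7602, WT_CON_7603, WT_CON_7605, WT_CON_7607 and WT_CON_7608 on Con and WT_MR_7609, WT_MR_7611, WT_MR_7613, WT_MR_7615 and WT_MR_7616 on MR.

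GH binds its receptor on hepatocytes and, through the kinase JAK2, activates the transcription factor STAT5B, which drives transcription of Igf1 and of Igfals, the acid-labile subunit that holds IGF1 in large complexes in blood. SOCS2 is induced by the same route and dampens GH receptor signalling, while BCL6 is a transcriptional repressor that can occupy STAT5 sites and whose own gene GH lowers. The IGF binding proteins IGFBP1, IGFBP2 and IGFBP4 bind IGF1 and control how much of it reaches its receptor, and in liver the genes of IGFBP1 and IGFBP2 are known to rise in fasting and when insulin is low. The epidermal growth factor receptor, EGFR, is abundant on hepatocytes, where its level is known to depend on GH.

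Levels are given as CPM, a gene's counts relative to its library's total after TMM scaling, for a 3′ library in which a read marks the 3′ end of a transcript, and they are compared between mice and not between genes. The 22 libraries held 6197291 to 22068338 counts, with a median of 15019792. Nfe2l2 was higher, not lower, in NRF2 KO, at 281 ± 43.9 CPM (SD, n = 6) in NRF2 KO Con against 158 ± 93.0 (n = 5) in WT Con, with log2 fold changes of 0.83 (SE 0.21, adjusted p = 0.0453) on Con and 1.18 (SE 0.22, adjusted p = 0.00353) on MR. The study detected the excision by PCR within the excised sequence, and where the 3′ reads lie relative to it is not given in the sources used here, so these counts do not check the deletion. The library labelled WT_CON_7607, at 324 CPM, lay within the NRF2 KO Con range of 228 to 339 CPM and goes against its label in this respect, and results that rest on WT Con are given without it where a call changed. The 9 hepatocyte markers, Alb and Apoa1 among them, were detected in every group, with 1 of 9 called lower with MR in each genotype. Their sums were 96839.6 to 127332 CPM in WT Con and 91969.6 to 107976 in WT MR, with medians of 122089 and 99914.9. In NRF2 KO they were 124708 to 143431 CPM on Con and 113462 to 134481 on MR, with medians of 136635 and 123834. Of the 8 endothelial markers 0 were called with MR in WT and 1 was called higher in NRF2 KO. Over all genes tested, 13.8% were called with MR in WT and 12.6% in NRF2 KO. Markers of other liver cells were lower with MR: 4 of 8 for Kupffer cells, 6 of 9 for stellate cells and 4 of 5 for bile duct were called lower in WT, and 2 of 8, 4 of 9 and 1 of 5 in NRF2 KO. The Kupffer cell markers summed to 379 to 513 CPM in WT Con, 305 to 342 in WT MR, 332 to 501 in NRF2 KO Con and 282 to 382 in NRF2 KO MR. The corresponding sums for stellate cells were 511 to 789, 429 to 536, 589 to 660.3 and 493.02 to 602 CPM, those for bile duct were 49.4 to 73.3, 20.9 to 28.3, 31.8 to 53.6 and 20.7 to 29.0 CPM, and no marker was at the floor of 3 counts in all mice. A score of 12 circadian clock genes, the mean log2 CPM of those high together with Arntl minus that of those high together with Dbp, ran from -3.14 to -0.77 in WT Con, -4.23 to -2.69 in WT MR, -4.73 to -4.17 in NRF2 KO Con and -4.91 to -4.41 in NRF2 KO MR. WT Con therefore lay above both NRF2 KO groups, without overlap. The medians of the score on Con and MR were -2.38 and -3.90 in WT, and -4.41 and -4.60 in NRF2 KO. In WT the score thus moved with diet, so a fit with it as a covariate cannot tell the 2 apart well. A WT call lost in that fit does not show a part of the clock. On each diet the score did not overlap between the genotypes, so that fit cannot tell genotype from the score well either. A genotype call lost in it likewise does not show a part of the clock. The part of these markers and of the clock score in the values below was not tested beyond the values given, and in bulk liver fewer cells of a type and less RNA per cell cannot be told apart.

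Promoter windows of 250 bases before a start site were read for 9 of the 10 genes from RefSeq on GRCm38.p6, 15 windows in all, and searched on both strands for 5 motifs. The STAT5 motif TTCNNNGAA occurs in 7.02% of the 32851 windows of all genes, and among the members it was in both windows of Bcl6 and in 2 of the 3 windows of Igfals. The insulin response motif CAAAACA, in 5.56% of all windows, was in that of Igfbp1, and this motif was added after the sequence had been seen. The FOXO motif TGTTTAC, in 3.17% of all windows, was in 1 window of Igfals. Neither the ATF4 motif TGATGNAA (3.45% of all windows) nor the NRF2 motif TGACNNNGC (10.2%) was found in a member's window. No motif was found in the windows of Ghr, Igf1, Egfr, Igfbp2, Igfbp4 and Stat5b, and no motif was assessed for Socs2. The only window of Igf1, chr10:87860861-87861110, lies inside the gene and within its annotated exons. The stretch before the annotated start of Igf1, at 87858265, was therefore not searched. No 2 motifs overlap in the windows below. Of the 5 windows with matches, 4 are shown without bases of annotated exons, 5′ to 3′ on the strand of the gene, in lower case with the motif in capitals, because Bcl6 and Igfals are named GH targets and Igfbp1 a named insulin target of the axis.
Bcl6, before its annotated start, chr16:23988853-23989102, minus strand, STAT5 motif at -118 to -110 from the start: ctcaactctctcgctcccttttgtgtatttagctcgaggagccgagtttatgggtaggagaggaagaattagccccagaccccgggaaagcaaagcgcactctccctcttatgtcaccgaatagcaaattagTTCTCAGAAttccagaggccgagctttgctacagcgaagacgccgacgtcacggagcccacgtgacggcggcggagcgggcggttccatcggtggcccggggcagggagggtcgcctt
Bcl6, before a start inside the gene, chr16:23981284-23981533, minus strand, STAT5 motif at -168 to -160, -122 to -114 and -88 to -80: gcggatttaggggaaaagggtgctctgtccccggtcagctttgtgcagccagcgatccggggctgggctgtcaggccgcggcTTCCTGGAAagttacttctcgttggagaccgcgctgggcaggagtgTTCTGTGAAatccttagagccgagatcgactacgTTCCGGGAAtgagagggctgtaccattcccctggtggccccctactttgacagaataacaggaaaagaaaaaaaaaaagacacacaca
Igfals, before a start inside the gene, chr17:24877981-24878214, plus strand, FOXO motif at -242 to -236 and STAT5 motif at -58 to -50: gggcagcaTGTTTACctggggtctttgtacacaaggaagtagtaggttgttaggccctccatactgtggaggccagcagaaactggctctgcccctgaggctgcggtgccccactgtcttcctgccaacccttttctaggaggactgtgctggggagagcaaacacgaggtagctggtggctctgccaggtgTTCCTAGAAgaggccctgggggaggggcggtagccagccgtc
Igfbp1, before its annotated start, chr11:7197537-7197781, plus strand, insulin response motif at -108 to -102: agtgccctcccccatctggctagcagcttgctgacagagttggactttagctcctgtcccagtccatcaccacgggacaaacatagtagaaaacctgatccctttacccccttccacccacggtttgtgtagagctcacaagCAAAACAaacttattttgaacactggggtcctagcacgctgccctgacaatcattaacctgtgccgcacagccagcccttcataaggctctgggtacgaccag
A match of letters describes the sequence and is no measured binding site.

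MR lowered the GH receptor transcript and Igf1 in both genotypes. Ghr fell by 40.3% in WT and by 42.8% in NRF2 KO mice, and Igf1 fell by 22.3% and by 23.4%. In NRF2 KO mice Egfr also fell by 57.0%. No member was called higher with MR in edgeR with TMM scaling, although Socs2, Igfbp1, Igfbp2 and Bcl6 had higher means on MR in both genotypes. With scaling by library size only, which shifts the median of all genes to 0.15 in NRF2 KO, Stat5b at 0.35 (adjusted p = 0.0217) and Socs2 at 1.06 (adjusted p = 0.0486) were called higher there. In the TMM-scaled fit 2 of 10 members were called in WT and 3 of 10 in NRF2 KO mice, at a Benjamini-Hochberg adjusted p under 0.05 in edgeR's quasi-likelihood test, where 13.8% and 12.6% of the 13336 genes tested were called, 6.91% and 6.34% lower and 6.91% and 6.23% higher. An unadjusted p under 0.05 was reached by 3 members in WT and 7 in NRF2 KO, beside 28.3% and 27.3% of all genes. The groups did not overlap for 2 members in WT and 1 in NRF2 KO, as for 9.32% and 5.45% of all genes. Ghr and Igf1 were called lower in both genotypes, as were 2.71% of all genes. The median log2 fold change of the 10 members was 0.011 in WT and -0.015 in NRF2 KO, beside -0.0062 and -0.0042 over all genes tested.

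**Figure D1:**
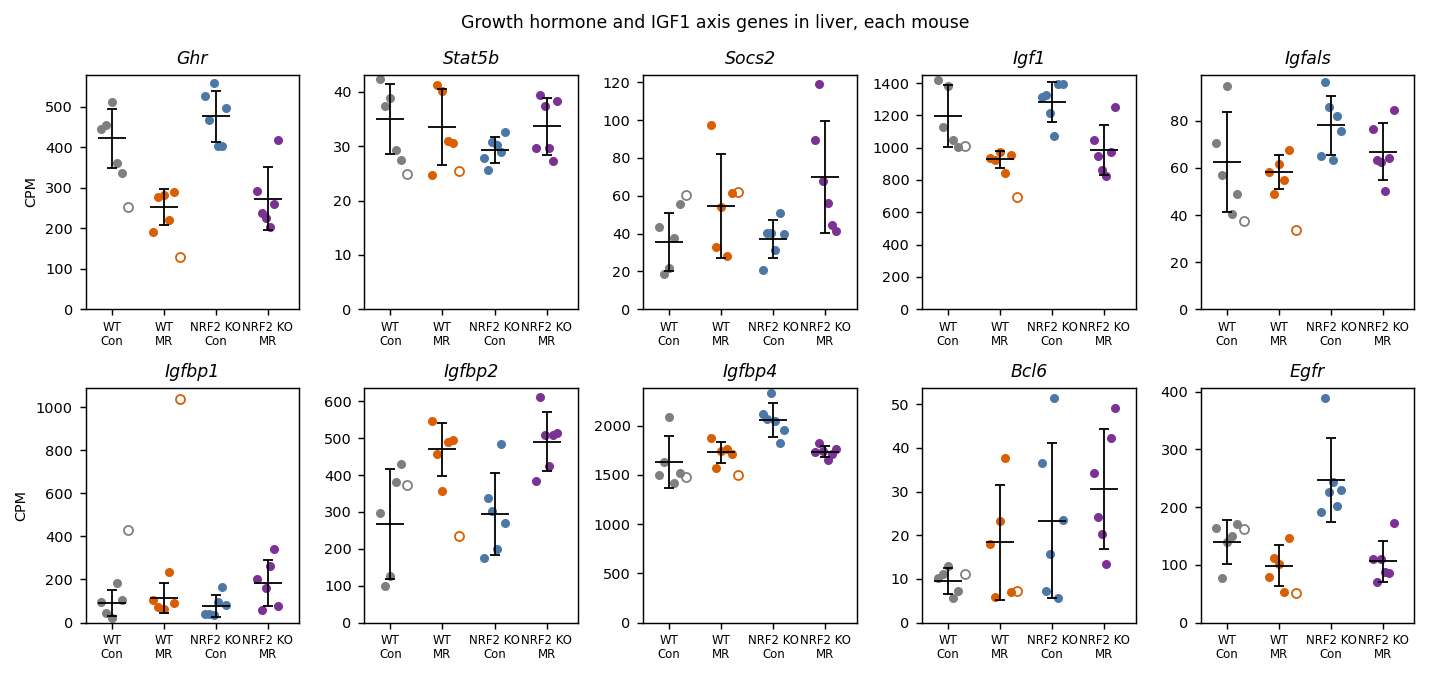
Level of each of the 10 genes in every mouse, in CPM on a linear axis from 0, by group. Filled circles are the 22 mice of the tests, with the group mean and SD as the bar, and open circles are the mice WT_CON_7604 and WT_MR_7612, scaled with all 24 mice. The WT MR values of Ghr (191 to 289 CPM) lie below every WT Con value (336 to 513 CPM), and the open circles of Igfbp1, at 428 and 1038 CPM, lie above every filled one.

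Ghr encodes the receptor through which the liver senses GH (chromosome 15, 3317760 to 3583492, minus strand, ENSMUSG00000055737; all positions of genes are GENCODE M21 on GRCm38). Ghr was at 447, 454, 513, 362 and 336 CPM in the WT Con mice and at 191, 278, 283, 221 and 289 CPM in the WT MR mice. The lowest, median and highest Ghr values were 402, 483 and 559 CPM in NRF2 KO Con and 202, 248 and 418 CPM in NRF2 KO MR. All WT MR mice lay below all WT Con mice, and in NRF2 KO 5 of 6 MR mice lay below every Con mouse, KO_MR_7632 being the exception. On the log2 scale the MR change of Ghr was -0.74 (SE 0.17, adjusted p = 0.00462) in WT and -0.81 (SE 0.15, adjusted p = 0.0013) in NRF2 KO, and it was called with each of the 22 mice left out in turn. The MR effects in the 2 genotypes differed by -0.061 (95% interval -0.52 to 0.40, adjusted p = 0.979 in edgeR). With the clock score as a covariate the WT value was -0.57 (adjusted p = 0.188) and the NRF2 KO value -0.78 (adjusted p = 0.00227).

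Stat5b, the transcription factor downstream of the receptor (chromosome 11, 100780731 to 100850724, minus strand, ENSMUSG00000020919), lay between 24.7 and 42.3 CPM in all 22 mice. Its MR change was -0.062 (SE 0.14, adjusted p = 0.818) in WT and 0.19 (SE 0.13, adjusted p = 0.336) in NRF2 KO, so that MR changes beyond -0.35 to 0.22 in WT and -0.064 to 0.45 in NRF2 KO lie outside the 95% intervals. Socs2, the feedback inhibitor (chromosome 10, 95385362 to 95417180, minus strand, ENSMUSG00000020027), was at 43.6, 18.8, 22.02, 37.5 and 55.6 CPM in WT Con and 97.2, 32.7, 53.9, 28.2 and 61.4 CPM in WT MR. The lowest, median and highest Socs2 values were 20.9, 39.9 and 51.0 CPM in NRF2 KO Con and 41.5, 62.2 and 119 CPM in NRF2 KO MR. Socs2 groups overlapped in both genotypes, and WT_MR_7609 and KO_MR_7627 carried the highest values of their groups. The MR change of Socs2 was 0.63 (SE 0.37, adjusted p = 0.291) in WT and 0.91 (SE 0.34, adjusted p = 0.0857) in NRF2 KO, neither of which was called with TMM scaling. Its 95% intervals were -0.16 to 1.41 and 0.20 to 1.62, and without WT_MR_7609 the WT value was 0.31.

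Igf1, the growth factor secreted by hepatocytes (chromosome 10, 87858265 to 87937042, plus strand, ENSMUSG00000020053), was at 1416, 1127, 1383, 1047 and 1001 CPM in WT Con and 938, 926, 976, 843 and 956 CPM in WT MR. In NRF2 KO the lowest, median and highest Igf1 values were 1072, 1319 and 1395 CPM on Con and 825, 959.6 and 1253 CPM on MR. Every WT MR mouse lay below every WT Con mouse, with the closest pair at 976 and 1001 CPM, and the NRF2 KO groups overlapped through KO_MR_7632. The 5 WT MR mice were close to each other, with a coefficient of variation of 5.48% against 16.1% in WT Con. On the log2 scale Igf1 changed by -0.36 (SE 0.11, adjusted p = 0.0324) in WT and -0.38 (SE 0.10, adjusted p = 0.0156) in NRF2 KO, a difference between the genotypes of -0.020 (95% interval -0.33 to 0.29). The call in NRF2 KO was made in all 22 fits that leave out 1 mouse, while that in WT was lost in 5 of them, without WT_CON_7602 (-0.30, adjusted p = 0.0812), WT_CON_7605 (-0.31, adjusted p = 0.0827), WT_MR_7609 (-0.37, adjusted p = 0.0505), WT_MR_7611 (-0.36, adjusted p = 0.0548) and WT_MR_7615 (-0.33, adjusted p = 0.0763). With the clock score as a covariate the WT value was -0.16 (adjusted p = 0.612), and the NRF2 KO value was -0.36 (adjusted p = 0.0205). With scaling by library size only, which shifts the median of all genes to 0.087 in WT and 0.15 in NRF2 KO, Igf1 stood at -0.26 (adjusted p = 0.0659) and -0.24 (adjusted p = 0.0512). An antisense gene, Igf1os, overlaps Igf1 at one end, with 343 counts in all mice together, and whether the counting used strand is not given in the sources used here.

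Igfals (chromosome 17, 24865997 to 24882010, plus strand, ENSMUSG00000046070) did not follow at this precision. Its means were 62.3 ± 21.2, 58.2 ± 7.08, 78.03 ± 12.7 and 66.8 ± 12.1 CPM (SD, n = 5, 5, 6 and 6) in WT on Con, WT on MR, NRF2 KO on Con and NRF2 KO on MR. The MR change of Igfals was -0.10 (SE 0.18, adjusted p = 0.768) in WT and -0.22 (SE 0.16, adjusted p = 0.411) in NRF2 KO, with 95% intervals of -0.48 to 0.28 and -0.56 to 0.12. These intervals hold the size of the Igf1 change, so a fall of that size in Igfals is not excluded. Within WT Con, Igfals spread from 40.5 to 94.6 CPM, and without WT_CON_7605, the highest, the WT value was 0.10.

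Among the binding proteins, Igfbp2 (chromosome 1, 72824503 to 72852474, plus strand, ENSMUSG00000039323) had higher means on MR in both genotypes without being called. Igfbp2 was at 296, 98.0, 127, 382 and 429.8 CPM in WT Con and 547, 458, 357, 488 and 496 CPM in WT MR. The lowest, median and highest values in NRF2 KO were 175, 287 and 484 CPM on Con and 383, 508 and 611 CPM on MR. Both WT and NRF2 KO groups overlapped, since WT_CON_7607, WT_CON_7608 and KO_CON_7622 reached the MR range, and WT_CON_7603 and WT_CON_7605 were the lowest of all mice. The MR change was 0.82 (SE 0.33, adjusted p = 0.111) in WT and 0.73 (SE 0.30, adjusted p = 0.121) in NRF2 KO, with unadjusted p = 0.0243 and 0.026, and in NRF2 KO it was called without KO_CON_7622 (0.93, adjusted p = 0.0473).

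Igfbp1 (chromosome 11, 7197782 to 7202546, plus strand, ENSMUSG00000020429), whose promoter carries the insulin response motif printed above, varied widely in every group, with coefficients of variation of 59.3% to 68.3%. It was at 96.1, 46.4, 22.3, 182 and 104 CPM in WT Con and 103, 70.8, 61.9, 234 and 89.9 CPM in WT MR. Its lowest, median and highest values were 35.4, 61.9 and 165 CPM in NRF2 KO Con and 56.1, 182 and 339 CPM in NRF2 KO MR. The groups overlapped on both genotypes, and WT_MR_7615 stood apart at 234 CPM from the other WT MR mice. The MR change was 0.30 (SE 0.59, adjusted p = 0.788) in WT and 1.28 (SE 0.55, adjusted p = 0.136) in NRF2 KO, with 95% intervals of -0.94 to 1.55 and 0.13 to 2.42. Leaving out WT_MR_7615 turned the WT value to -0.14, and leaving out WT_CON_7607 made it 0.73.

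Igfbp4 (chromosome 11, 99041244 to 99054392, plus strand, ENSMUSG00000017493) varied little within groups, with coefficients of variation of 3.26% to 16.3%. Igfbp4 was at 1501, 1629, 2088, 1418 and 1522 CPM in WT Con and 1872, 1570.1, 1739, 1759.5 and 1711 CPM in WT MR. The lowest, median and highest Igfbp4 values were 1822, 2058 and 2336 CPM in NRF2 KO Con and 1651, 1733 and 1824 CPM in NRF2 KO MR. NRF2 KO Con had the highest mean, and it overlapped NRF2 KO MR only in that KO_MR_7627 lay just above KO_CON_7622. The MR change was 0.085 (SE 0.093, adjusted p = 0.599) in WT and -0.25 (SE 0.085, adjusted p = 0.0575) in NRF2 KO. The NRF2 KO value missed the threshold, and it passed without WT_CON_7605 (-0.24, adjusted p = 0.025), WT_CON_7607 (-0.25, adjusted p = 0.0476) and KO_CON_7622 (-0.28, adjusted p = 0.0315) and in DESeq2, at -0.24 (adjusted p = 0.03).

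Bcl6, the repressor with STAT5 motifs in both windows printed above (chromosome 16, 23965052 to 23988852, minus strand, ENSMUSG00000022508), varied widely. It was at 10.3, 11.03, 13.0, 5.56 and 7.31 CPM in WT Con and 18.0, 5.87, 23.3, 37.7 and 6.91 CPM in WT MR. The lowest, median and highest Bcl6 values were 5.63, 19.7 and 51.5 CPM in NRF2 KO Con and 13.3, 29.2 and 49.2 CPM in NRF2 KO MR. WT Con was the one group in which all mice were low, at no more than 13.0 CPM, while the other groups reached 37.7 CPM (WT MR), 51.5 CPM (NRF2 KO Con) and 49.2 CPM (NRF2 KO MR). The MR change of Bcl6 was 0.90 (SE 0.60, adjusted p = 0.354) in WT and 0.38 (SE 0.50, adjusted p = 0.683) in NRF2 KO, with 95% intervals of -0.35 to 2.16 and -0.68 to 1.44, neither of which was called. The WT value was 0.51 without WT_MR_7615, and the NRF2 KO value was 0.18 without KO_CON_7622 and 0.77 without KO_CON_7621.

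Egfr (chromosome 11, 16752203 to 16918158, plus strand, ENSMUSG00000020122) was at 163, 76.4, 139, 149.5 and 171 CPM in WT Con and 79.7, 112, 102, 52.3 and 146 CPM in WT MR. The lowest, median and highest Egfr values were 191, 227 and 389.9 CPM in NRF2 KO Con and 70.7, 98.6 and 173 CPM in NRF2 KO MR. All NRF2 KO MR mice lay below all NRF2 KO Con mice, whereas the WT groups overlapped. The MR change of Egfr was -1.22 (SE 0.26, adjusted p = 0.00426) in NRF2 KO, called with each mouse left out in turn, and -0.50 (SE 0.28, adjusted p = 0.248) in WT. The highest NRF2 KO Con mouse, KO_CON_7618 at 390 CPM, is well above the others, and without it the NRF2 KO value was -1.04. The difference between the genotypes was -0.71 (95% interval -1.501 to 0.072, adjusted p = 0.697 in edgeR), so a larger fall in NRF2 KO than in WT was not shown.

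**Figure D2:**
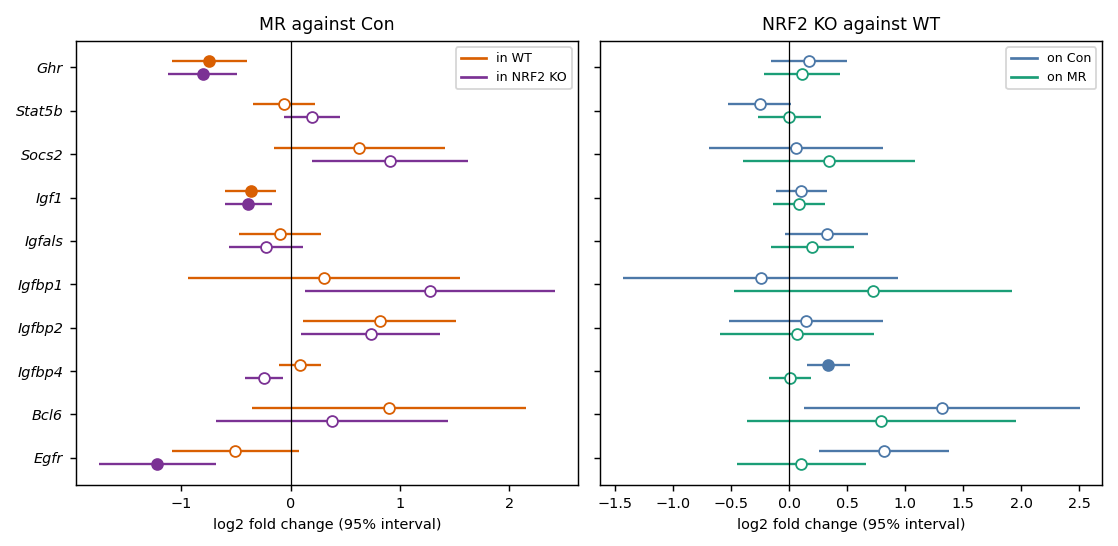
Log2 fold changes of the 10 genes with their 95% intervals, for MR against Con in each genotype (left) and NRF2 KO against WT on each diet (right); filled circles are called at an adjusted p under 0.05. Ghr and Igf1 lie to the left of 0 in both genotypes, at -0.74 and -0.81 and at -0.36 and -0.38, and Egfr is filled in NRF2 KO alone, at -1.22.

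The genotypes differed in few members. On Con diet Igfbp4 was the one member called, higher in NRF2 KO by 26.2%, and on MR none of the 10 was called, in edgeR and in DESeq2 alike. The call rate over all genes was 2.07% on Con, with 0.802% called higher, and 1.93% on MR, and 3 members on Con and 0 on MR had an unadjusted p under 0.05, as had 14.4% and 13.9% of all genes. On MR the groups of all 10 members overlapped, where those of 4.6% of all genes did not. The Igfbp4 change on Con was 0.34 (SE 0.090, adjusted p = 0.0478), and WT_CON_7605, at 2088 CPM, was the one WT Con mouse within the NRF2 KO Con range. This call was lost in 20 of the 22 fits that leave out 1 mouse, at an adjusted p of up to 0.13, and held without WT_CON_7605 (adjusted p = 0.00342) and without KO_CON_7622. It was 0.29 (adjusted p = 0.105) without the library labelled WT_CON_7607 and 0.22 (adjusted p = 0.634) with the clock score as a covariate. The score does not overlap between the genotypes on Con, so the latter fit cannot tell genotype from the score well.

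Egfr on Con was at 191 to 390 CPM in NRF2 KO and at 76.4 to 171 CPM in WT, groups that do not overlap, as in 1.83% of all genes. Its change was 0.82 (SE 0.27, adjusted p = 0.137), which was not called, and 0.82 (adjusted p = 0.0298) in DESeq2, which was. Bcl6 on Con was 1.32 (SE 0.57, adjusted p = 0.284), with an unadjusted p of 0.0316. The other members on Con ranged from -0.25 (Stat5b) to 0.32 (Igfals), and on MR all 10 ranged from 0.0016 (Stat5b) to 0.79 (Bcl6). For Ghr and Igf1 the genotype intervals on Con were -0.15 to 0.50 and -0.12 to 0.33. No member was called for the interaction of genotype and diet, where 0.045% of all genes, or 6, were called, and 1 of 10 had an unadjusted p under 0.05, as had 7.56% of all genes. DESeq2 called 0 members there too. The member was Igfbp4, whose MR effect differed between the genotypes by -0.33 (SE 0.13, adjusted p = 0.51).

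The order of the group means was shared by several members. For Ghr, Igf1 and Egfr it was WT MR, NRF2 KO MR, WT Con and NRF2 KO Con from low to high. The step from NRF2 KO MR to WT Con was larger than the larger of both SDs for Ghr and for Igf1, and for Egfr that was so only of the step from WT Con to NRF2 KO Con. Igfbp2 and Socs2 had the order WT Con, NRF2 KO Con, WT MR and NRF2 KO MR, and the step from NRF2 KO Con to WT MR passed the larger SD for Igfbp2 and not for Socs2. Igfbp4 rose beyond it only from NRF2 KO MR to NRF2 KO Con, and no neighbouring step of Stat5b, Igfals, Igfbp1 or Bcl6 did.

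Further genes of the pathway came from lists made from general knowledge, with earlier results of these data known. Counts over these lists are therefore descriptions and not independent tests. For each list, the share called with MR over all genes tested was 13.8% in WT (6.91% higher, 6.91% lower) and 12.6% in NRF2 KO (6.23% higher, 6.34% lower). Of 21 genes of GH receptor signalling tested, 2 were called lower and 0 higher with MR in WT, and 1 was called lower and 1 higher in NRF2 KO, with list medians of -0.030 and 0.020. Sirpa, an inhibitory receptor that binds phosphatases, fell in both genotypes, with log2 fold changes of -0.57 (SE 0.13, adjusted p = 0.00414) and -0.35 (SE 0.12, adjusted p = 0.0439), though the latter call held in 10 of 22 fits that leave out 1 mouse (adjusted p = 0.0835 without KO_MR_7629). With all 24 mice Sirpa was -0.58 (adjusted p = 0.0815) and -0.35 (adjusted p = 0.356). Sirpa is also expressed by macrophages, whose markers were lower with MR as given above. Sh2b3, an adaptor that restrains JAK2, rose in NRF2 KO by 0.45 (SE 0.096, adjusted p = 0.00334) and was 0.23 (SE 0.11, adjusted p = 0.161) in WT.

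Among 17 genes of the IGF system beyond the members, 1 was called lower with MR in WT and 3 were called higher in NRF2 KO, with medians of -0.055 and 0.012. Irs2, the substrate that couples the insulin receptor to PI3 kinase in liver, had lowest, median and highest values of 15.5, 18.9 and 29.1 CPM in NRF2 KO Con and 35.1, 46.4 and 49.9 CPM in NRF2 KO MR, without overlap. Irs2 rose there by 1.06 (SE 0.18, adjusted p = 0.0006) and was 0.24 (SE 0.19, adjusted p = 0.444) in WT. Insr, the insulin receptor, and Igf2r, which clears IGF2, rose in NRF2 KO by 0.29 (SE 0.075, adjusted p = 0.0124) and 0.52 (SE 0.15, adjusted p = 0.0305), and were 0.21 (SE 0.083, adjusted p = 0.0949) and 0.38 (SE 0.17, adjusted p = 0.141) in WT. The Igf2r call held in 17 of 22 fits that leave out 1 mouse (adjusted p = 0.0835 without KO_MR_7629). Shc1, an adaptor that links receptors to Ras, fell in WT, at -0.33 (SE 0.080, adjusted p = 0.00823), and was -0.053 (SE 0.072, adjusted p = 0.689) in NRF2 KO. With the clock score as a covariate the WT value of Shc1 was -0.34 (adjusted p = 0.0927). No gene of the list was called for the interaction, by edgeR or by DESeq2, and 2 had an unadjusted p under 0.05 in edgeR, as had 7.56% of all genes.

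Of 20 genes listed as regulators of Igf1 and Igfbp1 transcription, 5 were called higher and 1 lower with MR in WT, and 5 higher and 2 lower in NRF2 KO, with medians of -0.00078 and 0.050. The list was drawn broadly and holds genes of other roles, such as the co-receptor gene Klb. Klb, the co-receptor for the hormone FGF21, rose by 0.66 (SE 0.13, adjusted p = 0.00138) in WT and 0.39 (SE 0.12, adjusted p = 0.0296) in NRF2 KO, the latter in 16 of 22 fits that leave out 1 mouse (adjusted p = 0.0837 without KO_MR_7627). Cux2, a repressor that is female-biased in liver, was at 0.304 to 1.16 CPM in WT Con and, with overlap, at 0.432 to 21.8 CPM in WT MR (median 1.71). In NRF2 KO Cux2 was at 0.282 to 0.738 CPM on Con and at 0.746 to 19.2 CPM on MR (median 11.1), where the lowest MR mouse lay just above the highest Con mouse. Its changes were 3.16 (SE 0.90, adjusted p = 0.0259) and 4.57 (SE 0.89, adjusted p = 0.00267), and the WT call was lost without WT_CON_7603 (2.99, adjusted p = 0.0569), WT_CON_7605 (3.11, adjusted p = 0.054) and WT_MR_7609 (1.85, adjusted p = 0.168) and with the clock score as a covariate, at 0.31 (adjusted p = 0.934). Trim24, a co-regulator of nuclear receptors, rose by 0.87 (SE 0.27, adjusted p = 0.0363) and 1.201 (SE 0.24, adjusted p = 0.00326), its WT call holding in 16 of 22 fits (adjusted p = 0.127 without WT_MR_7609). Trim24 in WT was 0.91 (adjusted p = 0.0568) without the library labelled WT_CON_7607 and 0.14 (adjusted p = 0.863) with the clock score. Cebpa, a hepatocyte transcription factor, fell in NRF2 KO, at -0.47 (SE 0.099, adjusted p = 0.00315), and was -0.28 (SE 0.11, adjusted p = 0.0829) in WT. Foxo1, the insulin-restrained activator of Igfbp1, rose in WT by 0.31 (SE 0.10, adjusted p = 0.0481), in 10 of 22 fits (adjusted p = 0.132 without WT_MR_7616), and was 0.11 (SE 0.094, adjusted p = 0.514) in NRF2 KO. The WT call of Foxo1 was lost without the library labelled WT_CON_7607, at 0.26 (adjusted p = 0.111), and with the clock score, at 0.41 (adjusted p = 0.109). Foxo1 was also higher in NRF2 KO than in WT on Con, by 0.50 (SE 0.10, adjusted p = 0.00669), or by 0.65 (adjusted p = 0.224) with the clock score.

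In the EGF receptor family and its ligands, 1 of 9 genes tested beyond Egfr was called in each genotype, and it was the ligand gene Btc, betacellulin. Btc was at 5.41, 6.21 and 10.2 CPM (lowest, median and highest) in WT Con and 1.66, 2.68 and 3.06 CPM in WT MR, and at 2.46, 3.68 and 4.45 and 0.881, 1.42 and 1.70 CPM in NRF2 KO Con and NRF2 KO MR. Its groups did not overlap within either genotype. Btc fell with MR, at -1.46 (SE 0.20, adjusted p = 4.51e-05) in WT and -1.41 (SE 0.20, adjusted p = 6.42e-05) in NRF2 KO, and it was lower in NRF2 KO than in WT, at -0.94 (SE 0.18, adjusted p = 0.00442) on Con and -0.89 (SE 0.21, adjusted p = 0.0222) on MR. The last of these calls held in 17 of 22 fits that leave out 1 mouse (adjusted p = 0.088 without WT_MR_7611), that on Con was -1.44 (adjusted p = 0.0853) with the clock score, and the medians of the 9 genes were -0.034 and -0.021 for MR.

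Socs2 was set against each of the other 9 members across the 22 mice, after each group's mean was subtracted, since its level is used as a readout of GH signalling. Over the 22 mice together Socs2 rose and fell with Igfbp2, with Pearson's r = 0.62 (permutation p = 0.0026, adjusted over the 9 relations 0.0234) and Spearman's rho = 0.68 (permutation p = 0.00131, adjusted 0.0118). Without WT_CON_7603 and WT_MR_7615, the mice farthest from the median of Socs2, r was 0.61. Within the groups of 6 mice r was 0.92 in NRF2 KO Con and 0.13 in NRF2 KO MR, a difference that was not tested, and the WT groups of 5 mice were too small for an r of their own. Igfbp2 minus its group mean ran from -1.21 to 0.92 in WT Con and from -0.38 to 0.24 in WT MR. In NRF2 KO it ran from -0.67 to 0.79 on Con and from -0.34 to 0.33 on MR, so the Con mice had the wider spread. Leaving out single mice gave r from 0.55 to 0.68, with an adjusted p under 0.05 in 16 of 22 cases. With all 24 mice r was 0.57, and the adjusted permutation p of 0.09 did not pass. No other relation passed, the next being Ghr with r = -0.43 (permutation p = 0.0725, adjusted 0.289) and rho = -0.34 and Bcl6 with r = -0.38 (permutation p = 0.0962, adjusted 0.289) and rho = -0.45 (permutation p = 0.0495, adjusted 0.223). Socs2 and Igf1, both STAT5 targets, had r = -0.063.

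**Figure D3:**
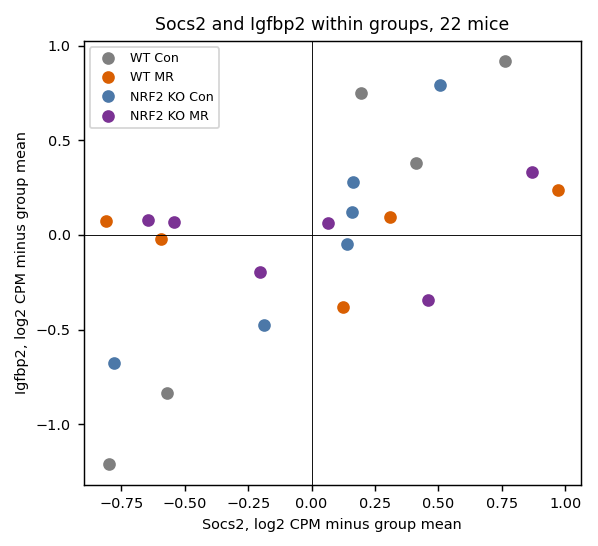
Socs2 against Igfbp2 in the 22 mice, each in log2 CPM after subtraction of its group's mean, coloured by group. Over all mice r was 0.62, with r = 0.92 within NRF2 KO Con and r = 0.13 within NRF2 KO MR. The MR points span less of the Igfbp2 axis than the Con points.

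The genes whose log2 CPM was most like a member's across the 22 mice, groups included, were taken from 6889 genes with at least 10 CPM, as a description that mixes differences between groups with those within them. For Igf1 they were Mug1 and Hsd3b2, with r = 0.92 and 0.91. Socs2 was most like Il6st and Fam120a (r = 0.80 and 0.78), Igfbp1 most like Acot2 and Cyp4a31 (r = 0.85 and 0.82), and Bcl6 most like Dennd1a and Prox1 (r = 0.72 and 0.71).

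The pattern of GH secretion in blood sets sex differences in liver, where male mice keep male-biased genes high and female-biased genes low through pulsed GH and STAT5B. Of 11 male-biased genes tested, 3 were called lower with MR in WT and 8 in NRF2 KO, with 0 higher and medians of -0.89 and -2.74. Of 10 female-biased genes, 4 were called higher in WT and 6 in NRF2 KO, with 0 lower and medians of 1.46 and 1.93, the latter unchanged when genes at the floor were set to their bound. With the clock score as a covariate 0 genes of either list were called in WT, and 7 male-biased and 6 female-biased genes in NRF2 KO. Over all 13336 genes tested that fit called 973 in WT and 1896 in NRF2 KO. The score moved with diet mainly in WT, as given above, so these counts do not tell the clock from the diet there. Hsd3b5 and Selenbp2, which encode a steroid dehydrogenase and a selenium-binding protein, fell, with log2 fold changes of -4.89 (SE 1.13, adjusted p = 0.00783) and -3.22 (SE 0.79, adjusted p = 0.0118) in WT and -4.84 (SE 0.94, adjusted p = 0.00269) and -3.20 (SE 0.66, adjusted p = 0.0043) in NRF2 KO. Their WT values under the clock score were -4.21 (adjusted p = 0.0901) and -3.50 (adjusted p = 0.0757). Hsd3b5 on MR ran from 0 to 8.13 CPM in WT, with a median of 0.518, and from 0.410 to 20.1 CPM in NRF2 KO, with a median of 0.914. Its fold changes were -6.78 without WT_MR_7613 and -7.02 without KO_MR_7632, so their size is uncertain, while both calls held in all 22 fits that leave out 1 mouse. Elovl3, a fatty acid elongase, fell in NRF2 KO, at -3.23 (SE 0.72, adjusted p = 0.00697), and was -1.45 (SE 0.71, adjusted p = 0.19) in WT. The cytochrome P450 genes Cyp2d9 and Cyp4a12a fell in NRF2 KO, at -1.96 (SE 0.40, adjusted p = 0.00375) and -2.74 (SE 0.75, adjusted p = 0.0236), and were -0.85 (SE 0.43, adjusted p = 0.202) and -0.52 (SE 0.77, adjusted p = 0.712) in WT, and Cyp4a12a lost its call without KO_MR_7625 (-2.65, adjusted p = 0.0514). Among female-biased genes Fmo2, a flavin monooxygenase, rose by 1.499 (SE 0.39, adjusted p = 0.0161) in WT and 2.05 (SE 0.36, adjusted p = 0.00119) in NRF2 KO, with 0.79 (adjusted p = 0.462) in WT under the clock score.

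The remaining female-biased genes named have near-identical relatives or very low counts, and their values are uncertain for that reason. Cyp2a4 rose from a median of 1.82 CPM in NRF2 KO Con to 191 CPM in NRF2 KO MR (adjusted p = 0.00442), without overlap, and in WT from 10.97 to 196 CPM with overlap (adjusted p = 0.0337, called in 16 of 22 fits that leave out 1 mouse, adjusted p = 0.0825 without WT_MR_7615). On the log2 scale the WT change of Cyp2a4 was 3.70 (SE 1.11, adjusted p = 0.0337), 3.56 (adjusted p = 0.071) without the library labelled WT_CON_7607 and 1.46 (adjusted p = 0.646) with the clock score. Cyp3a44 had no more than 3 counts in any NRF2 KO Con mouse, and against a floor of 3 counts per library its NRF2 KO MR mean of 4.15 CPM was at least 20.05-fold higher. That mean rests on KO_MR_7629, at 19.4 CPM, since the NRF2 KO MR mice ran from 0.339 CPM with a median of 1.31 CPM, and without this mouse the mean of 1.11 CPM was at least 5.35-fold higher. Cyp2b13 was at 0 to 0.836 CPM in WT Con and 0 to 16.7 CPM in WT MR (adjusted p = 0.0184, called in 21 of 22 fits, adjusted p = 0.0681 without WT_MR_7615), and at 0 to 0.319 against 0.755 to 3.86 CPM in NRF2 KO (adjusted p = 0.0297, 17 of 22 fits, adjusted p = 0.0689 without KO_CON_7617). The WT change of Cyp2b13 under the clock score was 2.54 (adjusted p = 0.488).

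Between the genotypes, edgeR called no gene of either list on Con, on MR or for the interaction, where 2.07%, 1.93% and 0.045% of all genes were called. Unadjusted p-values under 0.05 were reached by 0, 3 and 2 of 11 male-biased and 2, 0 and 1 of 10 female-biased genes. Over all genes tested 14.4%, 13.9% and 7.56% reached them. On MR DESeq2 called 484 of the 15149 genes it tested, 318 of them lower in NRF2 KO. Of the lists it called 3 male-biased and 0 female-biased genes on MR, all lower in NRF2 KO than in WT, and 0 genes of either list on Con or for the interaction. They were Elovl3 at -2.60 (adjusted p = 0.00952), Cyp4a12a at -2.55 (adjusted p = 0.0168) and Mup20, a major urinary protein gene chosen here after its values were seen, at -3.23 (adjusted p = 0.00688). The edgeR values were -2.63 (adjusted p = 0.0692), -2.57 (adjusted p = 0.0963) and -3.24 (adjusted p = 0.0665), and Elovl3 was called in 3 of 22 edgeR fits that leave out 1 mouse. Mup20 belongs to a family of near-identical genes, so its value is uncertain.

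**Figure D4:**
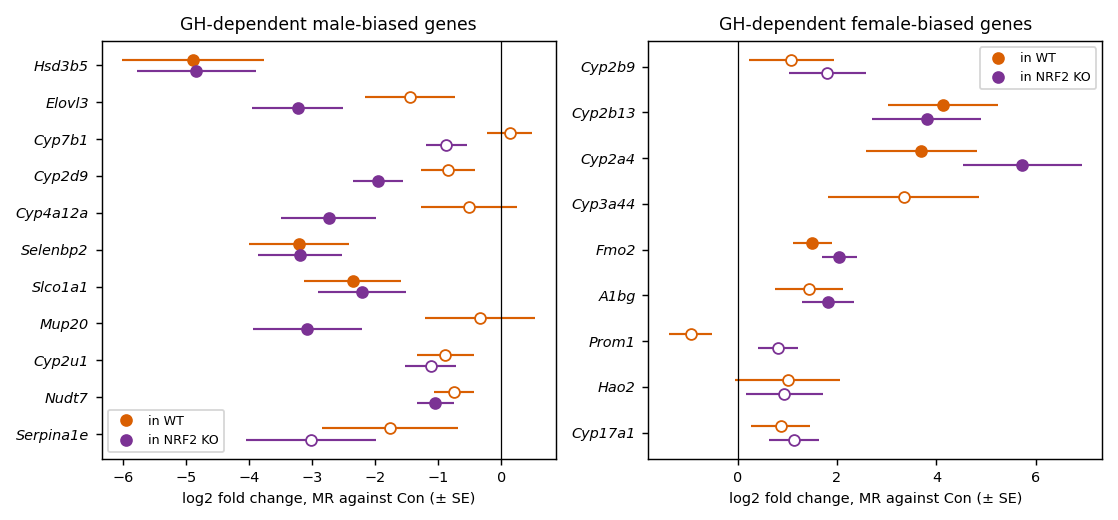
Log2 fold changes of male-biased (left) and female-biased (right) GH-dependent genes with MR, ± SE, in WT and NRF2 KO; filled circles are called at an adjusted p under 0.05. Hsd3b5 lies farthest to the left in both genotypes (-4.89 and -4.84), and Cyp3a44 is drawn in WT only, because its NRF2 KO Con group is at the floor; 1 of the 10 female-biased genes tested is not drawn.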

How the data were processed

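Liver RNA of 24 mice was sequenced as QuantSeq 3′ libraries, 1 per mouse. The raw count values are as deposited by the authors, who used the kit maker's pipeline on the Bluebee platform; the submitters' processing notes name GRCm38 (mm10), R 3.4.3 and DESeq2 1.18.1, and the aligner and annotation are not given in the sources used here. The deposited normalized signal equals each count over a DESeq2 size factor (largest relative deviation 5.1e-15) and served 1 alternative. Symbols came from the deposited table (13016) or GENCODE M21. Of 15160 genes, edgeR 4.0.16 (R 4.3.3) kept 13336 by its expression filter; TMM scaling, robust dispersions and quasi-likelihood F-tests were used in 1 model of 4 groups, with Benjamini-Hochberg adjustment over all genes tested. SE is the log2 fold change over the square root of F. Log2 CPM had a prior count of 2. Correlations used two-sided tests with 100000 permutations. The sources name no batch. Replicates are separate mice, and no pair of libraries agreed within sampling noise. In simulated data with 200 changed genes among 13144, the test recovered 173 (MR in WT, 9 other calls) and 188 (MR in NRF2 KO, 13 other calls). Of the 100 genes changed by 1 on the log2 scale it recovered 77 and 89. Smaller changes and a changed interaction were not simulated.

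The members and lists were chosen with earlier results of these data known. Besides the members, up to 5 called genes per list with at least 1 CPM were named by smallest p, and the 2 most similar genes for 4 members. Of the genes this rule names, 2 are counted in their lists and are not reported here by name. The alternatives were DESeq2 size factors, library size only, no filter, at least 10 counts in every mouse, DESeq2 1.42.0, limma 3.58.1 on log2(signal + 1), only the groups compared, all 24 mice, the clock score as covariate, and each mouse left out. Depth was 6197291 to 22068338 counts per mouse. Figures were drawn with matplotlib 3.10.9.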

Additional observations from a re-analysis of the deposited data

Results flagged for a closer look

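Igfbp1 in WT_MR_7615 was at 233.6 CPM, far above the other 4 WT MR mice at 61.9 to 103 CPM. Egfr in KO_CON_7618 was at 390 CPM (389.9), far above the other 5 NRF2 KO Con mice at 191 to 244 CPM. These were 2 high samples among 40 groups of 1 gene examined by Dixon's test, where chance marks about 1 in 20. Igfbp1 was also high in both mice left out of the comparisons: with all 24 mice scaled together it was at 428 CPM in WT_CON_7604 and at 1038 CPM in WT_MR_7612, above the highest of the other 22 mice at 342 CPM. WT_MR_7612 lay below all 22 for Ghr (128 CPM), Igf1 (694), Igfals (33.5) and Egfr (51.2), and WT_CON_7604 below all 22 for Stat5b (24.8) and Igfals (37.5). The part of these mice in any result was not tested beyond the fits with all 24 mice and with single mice left out.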

How the results depend on the processing

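No paired analysis was possible because the replicate numbers are the numbers of single mice, and no number occurs in more than 1 group. The calls of Ghr in NRF2 KO, and of Egfr in NRF2 KO, were made under every alternative run. Members called with MR in WT were 2, and 3 with limma, 1 with library size only, 1 with only the groups compared and 0 with the clock score. With MR in NRF2 KO they were 3, 5 with only the groups compared, and 4 with DESeq2, at least 10 counts, the clock score (-0.26 (adjusted p = 0.0485) for Igfbp4) or library size only, where Igf1 was lost and Stat5b and Socs2 were called higher. For NRF2 KO on Con they were 1, and 2 in DESeq2 and 0 with DESeq2 size factors, no filter, limma, only the groups compared or the clock score. Leaving out single mice gave 1 to 2, 3 to 5 and 0 to 1 members called in these comparisons, and 0 for NRF2 KO on MR and the interaction.

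GH receptor signalling genes called with MR in WT (2) were 1 with no filter, only the groups compared or the clock score and 0 with all 24 mice, and in NRF2 KO (2) they were 5 with library size only or DESeq2 and 1 with all 24 mice. IGF system genes in WT (1) were 0 with the clock score. Regulators in WT (6) were 3 with only the groups compared and 2 with the clock score. EGF receptor family genes in NRF2 KO (1) were 3 in DESeq2 and 2 with only the groups compared. Male-biased genes in WT (3) were 1 with at least 10 counts in every mouse, 5 with limma and 0 with the clock score. Female-biased genes in WT (4) were 1 with at least 10 counts, 2 with limma and 0 with only the groups compared or the clock score, and in NRF2 KO (6) 1 with at least 10 counts and 3 with only the groups compared; fewer genes pass the stricter filter. Leaving out single mice gave 1 to 2 and 1 to 4 (GH receptor signalling in WT and NRF2 KO), 2 to 3 (IGF system in NRF2 KO), 3 to 7 and 5 to 7 (regulators), 1 to 2 (EGF receptor family in NRF2 KO), 2 to 4 and 5 to 10 (male-biased), and 1 to 5 and 4 to 6 (female-biased).

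Directions turned as follows. With library size only, MR in WT was 0.042 for Stat5b and 0.025 for Igfals, MR in NRF2 KO was 0.11 for Shc1, and the interaction was 0.021 for Igf1 and 0.022 for Igfbp2. With all 24 mice, NRF2 KO on Con was -0.10 for Socs2, NRF2 KO on MR was -0.53 for Igfbp1, and the interaction was 0.012 for Igf1 and 0.14 for Igfbp2. With the clock score, MR in WT was 0.25 for Stat5b, 0.079 for Igfals, -0.091 for Irs2 and 0.064 for Cyp4a12a; NRF2 KO on Con was 0.20 for Stat5b, -0.43 for Socs2 and -0.53 for Igfbp2; NRF2 KO on MR was -0.20 for Igfbp2 and -0.039 for Igfbp4; and the interaction was -0.016 for Stat5b and 0.33 for Igfbp2. With all 24 mice the relation of Socs2 with Igfals was r = -0.16 and that with Igfbp2 r = 0.57, and the latter ran from 0.55 to 0.68 with single mice left out. With single mice left out, directions turned within these ranges: for MR in WT, Stat5b -0.15 to 0.033, Igfals -0.22 to 0.10 and Igfbp1 -0.14 to 0.73; for NRF2 KO on Con, Socs2 -0.11 to 0.29, Igfbp1 -0.63 to 0.17 and Igfbp2 -0.072 to 0.39; for NRF2 KO on MR, Ghr -0.051 to 0.18, Stat5b -0.094 to 0.089, Igfbp2 -0.023 to 0.13, Igfbp4 -0.032 to 0.035 and Egfr -0.087 to 0.29; for the interaction, Ghr -0.22 to 0.011, Igf1 -0.10 to 0.034 and Igfbp2 -0.32 to 0.14; and in relations with Socs2, r for Igf1 -0.15 to 0.10, Igfals -0.070 to 0.19 and Igfbp4 -0.29 to 0.042. None of these directions belongs to a called value of a member, and the cause was not tested.

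Over all genes, DESeq2 called 33 genes for the interaction (6 in edgeR), 449 for NRF2 KO on Con (276) and 484 on MR (258). Only the groups compared gave 99 and 600 for the latter comparisons, the clock score 7 and 124, and library size only 2785 for MR in NRF2 KO (1677). The clock score does not overlap between the genotypes on either diet, so its fit cannot tell genotype from the score well. With MR in WT the clock score gave 973 and only the groups compared 1233 (1843). Library size only moved the share of MR calls that are higher to 73.2% for WT (50.0% before), to 86.1% for NRF2 KO (49.6%) and to 27.6% for NRF2 KO on Con (38.8%), and the median of all genes to 0.087 and 0.15. The depth bears on low genes such as Cyp3a44, while every member had at least 62 counts in every mouse.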
